A study of Mus musculus with 6 samples.

Results

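The genes of de novo lipogenesis turn carbon from glucose and acetate into fatty acids. The 10 genes listed here were *Acly*, *Acss2*, *Acaca*, *Acacb*, *Fasn*, *Scd1*, *Scd2*, *Me1*, *Srebf1* and *Mlxipl*, and each was looked up by its symbol in the gene table of inguinal white adipose tissue (iWAT). A row of their own was found for 9 of the 10, out of 19445 loci in all. *Scd2* was present only in a row shared with the microRNA gene *Mir5114*, so it was described beside the other genes and left out of their counts. The comparison asked how the level of these RNAs in iWAT differed between *Hlx* transgenic (TG) mice and wild-type (WT) littermates.

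Hlx is a homeobox transcription factor that the study examined for its part in the browning of white fat, the appearance of brown-like adipocytes in a white depot. The 3 TG mice carried a full-length *Hlx* cDNA driven by the *aP2* (*Fabp4*) promoter, which is active in adipocytes and is not restricted to white or brown fat. The transgene was made in C57BL/6 × SJL hybrid embryos and the lines were backcrossed to C57BL/6, and the sources used here do not say whether the 3 mice came from 1 founder line. All 6 mice were untreated, 12 weeks of age and labelled male, and the 3 WT mice were littermates without the transgene. RNA of whole iWAT was sequenced as 1 library per mouse, and the values are FPKM, a density of mapped fragments scaled by transcript length and by the size of the library, which can be set side by side between genes because they are scaled by length.

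In this pathway, citrate leaves the mitochondria and ATP citrate lyase (*Acly*) splits it into acetyl-CoA, while acetyl-CoA synthetase (*Acss2*) makes acetyl-CoA from acetate. The acetyl-CoA carboxylases ACC1 (*Acaca*) and ACC2 (*Acacb*) convert acetyl-CoA to malonyl-CoA, fatty acid synthase (*Fasn*) builds palmitate from it, and the stearoyl-CoA desaturases (*Scd1*, *Scd2*) introduce a double bond. Malic enzyme (*Me1*) is a source of the NADPH that the synthase uses. The transcription factors SREBP-1 (*Srebf1*), which responds to insulin, and ChREBP (*Mlxipl*), which responds to glucose metabolites, are known to drive these genes in fat and liver.

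Promoter windows were read for the genes on which the comparison turned, because both transcription factors act through short DNA elements near the start of transcription. Each is the 250 bases before a RefSeq start on GRCm38.p6 (mm10), printed 5′ to 3′ on the strand of the gene. Capitals mark matches on either strand to any of 4 motifs. The sterol regulatory element, through which the SREBP proteins act, was searched as TCACNCCAC. The E-box, a core of the elements that ChREBP and SREBP-1 bind, was searched as CACGTG. The CCAAT box was searched by the letters of its name, and the GC box, to which Sp1 binds, as GGGCGG. Distances count from the start to the 5′ base of the match.
*Acacb*, chr5:114165268-114165517, plus strand: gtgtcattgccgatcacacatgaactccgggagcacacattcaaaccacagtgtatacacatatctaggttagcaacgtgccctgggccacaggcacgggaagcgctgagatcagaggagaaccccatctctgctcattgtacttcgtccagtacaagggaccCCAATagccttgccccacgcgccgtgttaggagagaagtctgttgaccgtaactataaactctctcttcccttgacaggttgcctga
*Acly*, chr11:100528001-100528250, minus strand: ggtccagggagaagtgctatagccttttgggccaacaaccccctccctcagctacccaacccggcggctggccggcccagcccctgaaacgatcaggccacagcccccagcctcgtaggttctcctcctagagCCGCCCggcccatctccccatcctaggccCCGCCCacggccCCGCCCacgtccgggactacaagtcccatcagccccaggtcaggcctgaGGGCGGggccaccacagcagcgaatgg
*Fasn*, chr11:120824548-120824797, minus strand: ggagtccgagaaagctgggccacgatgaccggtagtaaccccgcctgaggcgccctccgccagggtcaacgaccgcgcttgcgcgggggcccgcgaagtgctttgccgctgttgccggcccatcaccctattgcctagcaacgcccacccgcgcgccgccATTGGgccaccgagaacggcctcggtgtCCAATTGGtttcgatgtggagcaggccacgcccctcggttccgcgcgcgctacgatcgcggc
*Mlxipl*, upstream start, chr5:135089640-135089889, plus strand: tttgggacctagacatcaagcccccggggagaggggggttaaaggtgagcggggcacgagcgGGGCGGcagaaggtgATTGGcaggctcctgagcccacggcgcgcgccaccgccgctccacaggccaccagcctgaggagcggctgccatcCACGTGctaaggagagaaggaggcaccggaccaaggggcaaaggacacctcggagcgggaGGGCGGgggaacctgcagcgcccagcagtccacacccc
*Mlxipl*, downstream start, chr5:135106641-135106890, plus strand: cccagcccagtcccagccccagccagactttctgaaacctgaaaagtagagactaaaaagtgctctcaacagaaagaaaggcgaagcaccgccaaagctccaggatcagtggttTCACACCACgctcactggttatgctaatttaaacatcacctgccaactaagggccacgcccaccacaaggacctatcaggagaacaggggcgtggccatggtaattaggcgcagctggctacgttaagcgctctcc

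The *Acacb* window held 1 CCAAT box, 87 bases before the start, and this start lies inside the deposited locus, which begins farther upstream. The *Acly* window held 4 GC boxes, 117, 88, 76 and 27 bases before the start, and no other match. The *Fasn* window held 3 CCAAT boxes, 90, 62 and 59 bases before the start, and the last pair overlap on opposite strands. ChREBP is known to have a second form, ChREBP-β, made from an upstream first exon, and the *Mlxipl* starts lie 17001 bases apart. The upstream window held an E-box at 98 bases, a CCAAT box at 173 bases and GC boxes at 188 and 38 bases, whereas the downstream window held a sterol regulatory element at 136 bases. The deposited gene values do not separate these starts.

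Windows were found for 8 of the 10 genes, 12 windows in all. The sterol regulatory element was in 1 of the 12 and in 1.05% of 32851 windows of the same length, and the E-box in 1 of the 12 and in 6.02%. CCAAT boxes were in 7 of the 12 windows against 33.8% of all windows, and GC boxes in 6 of the 12 against 32.7%. The CCAAT boxes belonged to 6 genes and the GC boxes to 5 genes. The *Acaca* window held no match to any of the 4 motifs, which says only that these letters are not in that window. Like that of *Acacb*, the *Acaca* start lies inside the deposited locus, which begins farther upstream. Whether transcription begins at either start in iWAT was not tested, so these windows, counted among the 12, may not be promoters. Some of the *Srebf1* starts were not found in an annotated transcript of that gene, and their windows are counted here.

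The libraries were checked before the comparison. *Hlx* (chr1:184727144-184732493) was at 109.7, 79.6 and 99.5 FPKM in the TG mice and at 6.88, 7.35 and 8.14 FPKM in the WT mice, a log2 difference of 3.51 ± 0.13 (limma standard error, adjusted p = 0.000101), so the genotype labels held in every library. All 6 mice were labelled male, yet *Xist*, the RNA of the silenced X in females, was at 20.2 to 33.6 FPKM in each of them and 0 of the 28 Y chromosome loci had a value above 0, so the labelled sex is in doubt for both genotypes alike. Relative depth, read from the step between low values, ran from 0.690 to 1.14 in TG mice and from 0.943 to 1.41 in WT mice with WT replicate 3 at 1, so low values of TG replicates 1 and 3 are less precise. Adipocyte markers summed to 28295 to 33640 FPKM in TG mice and 24006 to 29725 FPKM in WT mice, with 0 of 7 higher and 1 of 7 lower by limma (unadjusted, 0 and 1), so the adipocyte label of the tissue held. *Fabp4*, with means of 26591 FPKM in TG and 21945 FPKM in WT mice, made up most of these sums. The lower marker was *Adipoq*, with a log2 difference of -0.85 (limma adjusted p = 0.0155). All 6 brown adipocyte markers were higher in TG mice. Of 11691 loci tested, 1355 were higher in TG mice (11.6%) and 829 lower (7.09%) at an adjusted p under 0.05, with a median log2 difference of -0.01.

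Of the 9 lipogenic genes with their own row, 3 were higher in TG iWAT (33.3%, against 11.6% of all tested loci), 0 were lower (against 7.09%), and 6 were not called. The 3 were *Acacb*, *Acly* and *Mlxipl*: the mitochondrial carboxylase, the enzyme that supplies cytosolic acetyl-CoA, and the glucose-responsive transcription factor. The fitted difference was positive for all 9, with a median log2 difference of 0.47, and at an unadjusted p under 0.05 by limma 6 were higher and 0 lower. In the 7 genes measured in all 6 mice, every TG mouse was above every WT mouse for 4, *Acacb*, *Acly*, *Mlxipl* and *Acaca*, against 22.8% of all tested loci, and below for 0, against 20.1%. Samples were compared 3 against 3, for which an exact two-sided permutation test of a single gene cannot go below p = 0.1, and that value was reached by each of the 4. In bulk tissue, a change in the number of cells of a type and a change in RNA per cell cannot be told apart.

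**Figure D1:**
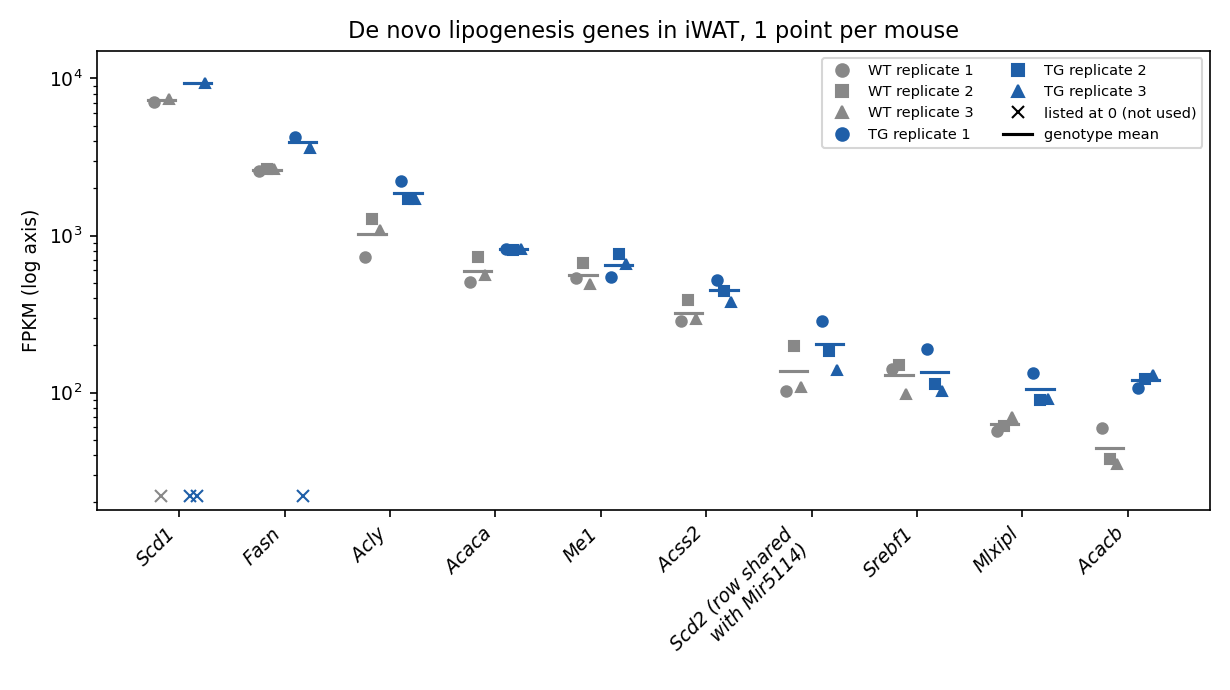
FPKM of the 10 genes on a log axis, with 1 point per mouse (circle, square and triangle for replicates 1, 2 and 3; grey WT, blue TG), a bar for the mean of each genotype and crosses for values listed at 0 and not used. The genes span from 34.9 FPKM (*Acacb*, WT) to 9319 FPKM (*Scd1*, TG), and the TG points lie wholly above the WT points for *Acly*, *Acaca*, *Mlxipl* and *Acacb*.

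The pathway was abundant in iWAT of both genotypes. By mean FPKM over the mice used, *Scd1* ranked 4 and *Fasn* 10 among the 19445 loci, *Acly* ranked 32 and *Acaca* 87, and the lowest-ranked, *Acacb*, stood at 918. In WT mice the order of mean levels was *Scd1*, *Fasn*, *Acly*, *Acaca*, *Me1*, *Acss2*, *Scd2*, *Srebf1*, *Mlxipl* and *Acacb*. The ranges of *Acaca* and *Me1*, of *Scd2* and *Srebf1*, and of *Mlxipl* and *Acacb* overlapped, and the other neighbours in the order did not. In TG mice the order was the same except that *Acacb* stood above *Mlxipl*, with the ranges of *Scd2*, *Srebf1*, *Acacb* and *Mlxipl* overlapping from each to the next.

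The enzymes that make acetyl-CoA in the cytosol were *Acly* and *Acss2*. *Acly* (chr11:100476351-100528000) was at 2207, 1706 and 1707 FPKM in the TG mice and at 735, 1266 and 1084 FPKM in the WT mice. TG replicate 1 was the highest and WT replicate 1 the lowest, and the genotypes did not overlap. The means were 1873 ± 289 and 1028 ± 270.0 FPKM (SD, n = 3 each), a ratio of 1.82 and a log2 difference of 0.89 ± 0.23 (limma standard error, adjusted p = 0.0379). This call was lost in 8 of 15 alternative settings, 5 of which left out 1 mouse (TG replicate 1, 2 or 3, or WT replicate 1 or 3), with an adjusted p of 0.059 to 0.101 without 1 of these mice and up to 0.115 in the other settings.

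*Acss2* (chr2:155517965-155592868) was at 519, 442 and 379.7 FPKM in the TG mice and at 285, 387 and 296 FPKM in the WT mice. WT replicate 2 lay above TG replicate 3, so the genotypes overlapped in that pair of mice, and the log2 difference of 0.47 ± 0.17 was not called (limma adjusted p = 0.091). Under quantile normalization it was 0.12 (adjusted p = 0.598). Its locus also holds *Gss*, the glutathione synthetase gene, on 2 rows at 8.25 to 15.4 FPKM and 0.642 to 3.15 FPKM. The library kit does not mark strand, and reads in any sequence that both genes share cannot be assigned to either. In that order, the *Gss* rows were higher in TG mice by 0.53 (limma adjusted p = 0.0321) and 0.85 (adjusted p = 0.0385). The part of *Gss* reads in the *Acss2* value was not tested.

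Of the acetyl-CoA carboxylases, *Acacb* was called and *Acaca* was not. *Acacb*, whose enzyme ACC2 sits at the mitochondrial surface and makes the malonyl-CoA that restrains carnitine palmitoyltransferase 1, lies at chr5:114146276-114250762. It was at 107, 123 and 129 FPKM in the TG mice and at 59.7, 37.9 and 34.9 FPKM in the WT mice. Every TG mouse was well above every WT mouse, and WT replicate 1 stood apart from the other WT mice on the high side. The means were 119 ± 11.4 and 44.2 ± 13.5 FPKM (SD, n = 3 each), a ratio of 2.70 and a log2 difference of 1.45 ± 0.20 (limma adjusted p = 0.00416), and the call held under all 15 alternatives (log2 difference 1.30 to 1.68).

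*Acaca*, whose enzyme ACC1 makes the malonyl-CoA used for synthesis in the cytosol, lies at chr11:84173148-84412099. It was at 824, 807 and 819.6 FPKM in the TG mice and at 504, 727 and 559 FPKM in the WT mice. The TG values were close together and all above the WT values, of which replicate 2 was the highest. The means were 817 ± 8.93 and 597 ± 116 FPKM (SD, n = 3 each), a ratio of 1.37, and the log2 difference of 0.47 ± 0.15 was not called (limma adjusted p = 0.0747). Without WT replicate 2 the difference was 0.62 and was called (adjusted p = 0.0384), and under quantile normalization it was 0.15 (adjusted p = 0.538).

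*Acacb* as a share of *Acaca* FPKM in the same mouse was 12.9, 15.2 and 15.7% in TG mice and 11.8, 5.22 and 6.25% in WT mice. The genotypes did not overlap, but WT replicate 1 came close to TG replicate 1. The mean shares were 14.6 ± 1.48% and 7.77 ± 3.56% (SD, n = 3 each), and the log2 ratio differed by 0.98 (two-sided exact permutation p = 0.1, the lowest 3 against 3 can give). Under the alternatives the difference ran from 0.74 to 1.33.

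**Figure D2:**
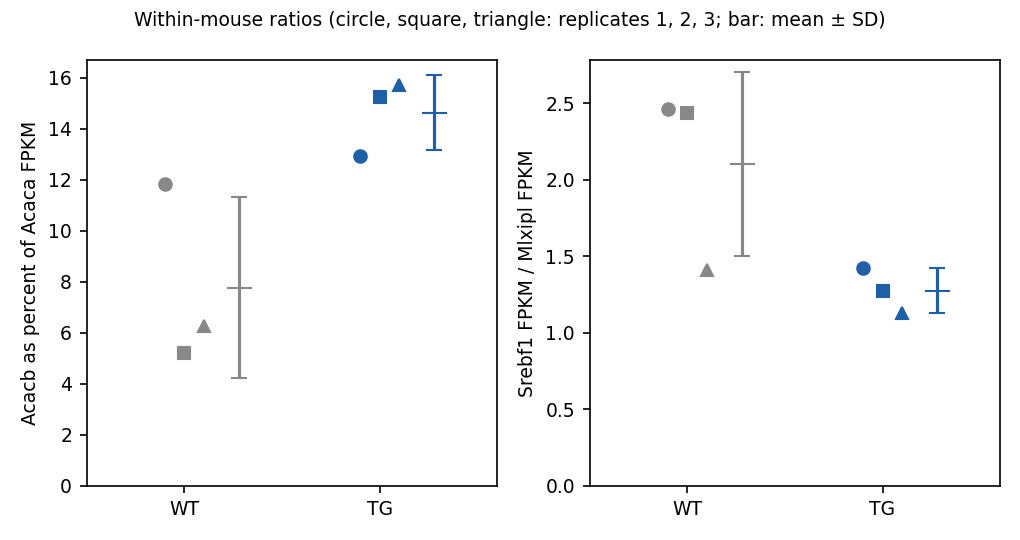
Within-mouse ratios by genotype, with 1 point per mouse and the mean ± SD (n = 3) beside the points; left, *Acacb* as a percent of *Acaca* FPKM; right, *Srebf1* FPKM divided by *Mlxipl* FPKM. The left panel shows TG mice at 12.9% or more and WT mice at 11.8% or less; in the right panel WT replicate 3, at 1.41, falls among the TG mice.

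The synthase and the desaturases were only partly measured. *Fasn* (chr11:120803505-120824547) was at 4261 and 3632 FPKM in TG replicates 1 and 3 and at 2566, 2648 and 2647 FPKM in the WT mice. TG replicate 2 was listed at 0, which beside values over 1000 FPKM of the same locus was taken as a failed estimate and set missing. Both measured TG mice lay above all 3 WT mice, which were within a narrow range. The means were 3947 ± 445 (n = 2) and 2620.4 ± 46.9 FPKM (SD, n = 3), a ratio of 1.51, and the log2 difference of 0.59 ± 0.18, fitted without TG replicate 2, was not called (limma adjusted p = 0.0736). Without a mean-dependent trend in the variance it was called (adjusted p = 0.0177).

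*Scd1* (chr19:44394449-44407709), the main desaturase of fat, was at 9319 FPKM in TG replicate 3 and at 7086 and 7395 FPKM in WT replicates 1 and 3, and it was listed at 0 in the other 3 mice. The fitted log2 difference of 0.36 ± 0.37 rests on 1 TG and 2 WT mice and was not called (limma adjusted p = 0.525), and under quantile normalization it was 1.06 (adjusted p = 0.0654). *Scd2* (chr19:44293675-44306864), a desaturase known from brain and developing tissues, was measured in all 6 mice in its shared row. It was at 284, 185 and 139.6 FPKM in the TG mice and at 103, 199 and 109 FPKM in the WT mice. TG replicate 1 and WT replicate 2 were the high mice of their genotypes, the ranges overlapped, and the log2 difference of 0.57 ± 0.33 was not called (limma adjusted p = 0.251). It was 0.30 without TG replicate 1, 0.87 without WT replicate 2 and 0.21 with sample quality weights.

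In the 3 mice with a value for both desaturases, *Scd2* was 1.498% of *Scd1* in TG replicate 3, and 1.45 and 1.47% in WT replicates 1 and 3. These shares were close to each other, with no test at this number of mice.

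*Me1* (chr9:86580477-86701253) was at 542, 759.7 and 659 FPKM in the TG mice and at 539, 665 and 489 FPKM in the WT mice. Replicate 2 was the highest mouse of each genotype, and the ranges overlapped over most of their length. The log2 difference of 0.21 ± 0.17 was not called (limma adjusted p = 0.412), and under quantile normalization it was -0.12. Without TG replicate 2 it was 0.096 and without WT replicate 3 it was 0.11.

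Of the transcription factors of the pathway, *Mlxipl* was called and *Srebf1* was not. *Mlxipl* (chr5:135089878-135139986) was at 134, 89.2 and 90.8 FPKM in the TG mice and at 57.1, 61.1 and 69.8 FPKM in the WT mice. All TG mice were above all WT mice, and TG replicate 1 stood apart above the other TG mice. The means were 105 ± 25.4 and 62.7 ± 6.51 FPKM (SD, n = 3 each), a ratio of 1.67 and a log2 difference of 0.71 ± 0.17 (limma adjusted p = 0.0307). The call was lost in 6 of 15 alternatives, 4 of which left out 1 mouse (TG replicate 3, or WT replicate 1, 2 or 3), with an adjusted p of 0.0546 to 0.0834 without 1 of these mice.

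*Srebf1* (chr11:60105012-60222766) was at 191, 113 and 102 FPKM in the TG mice and at 141, 149 and 98.6 FPKM in the WT mice. The ranges overlapped, and TG replicate 1 alone exceeded the WT mice. The log2 difference was 0.03 ± 0.26 (limma adjusted p = 0.939), and without TG replicate 1 it was -0.24. *Srebf1* is known to give SREBP-1a and SREBP-1c from separate starts, which the gene value sums. Its deposited locus is shared with *Rai1*, at 4.03 to 5.65 FPKM.

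*Srebf1* divided by *Mlxipl* in the same mouse was 1.42, 1.27 and 1.13 in TG mice and 2.46, 2.44 and 1.41 in WT mice. WT replicates 1 and 2 were above all TG mice and WT replicate 3 was among them. The mean ratios were 1.27 ± 0.148 and 2.104 ± 0.600 (SD, n = 3 each), and the log2 ratio differed by -0.68 (exact permutation test, two-sided p = 0.2).

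**Figure D3:**
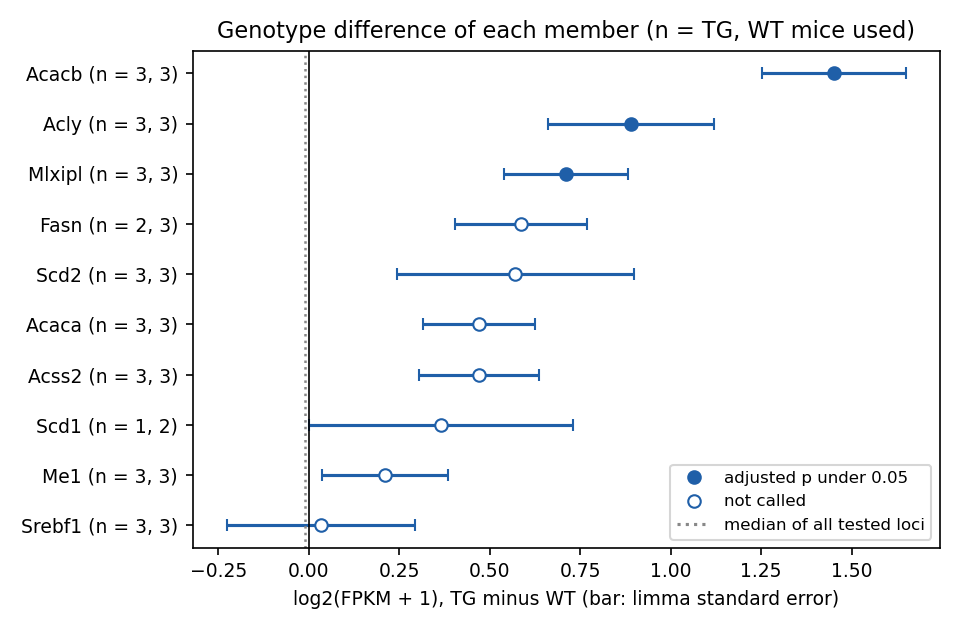
Log2(FPKM + 1) difference, TG minus WT, of each gene with the limma standard error; filled points had an adjusted p under 0.05, and n gives the TG and WT mice used. *Acacb* (1.45), *Acly* (0.89) and *Mlxipl* (0.71) are filled, *Srebf1* sits at 0.03, and the dotted line at -0.01 is the median of all tested loci; *Scd2* is the row shared with *Mir5114*.

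The 7 genes with their own row measured in all mice were summed. This leaves out *Scd1* and *Fasn*, the genes of highest level (means of 7240 and 2620 FPKM in WT mice), so the sum is not that of the pathway. The 7 genes held 4524, 4040 and 3887 FPKM in the TG mice and 2321, 3293 and 2631 FPKM in the WT mice. These were 0.771 to 0.835% and 0.448 to 0.695% of all FPKM. Every TG sum was above every WT sum, with a ratio of the means of 1.51 (exact permutation test, two-sided p = 0.1). *Acly* was the largest term of this sum in every mouse. The mice of a genotype kept a partly common order across the genes. TG replicate 1 was the highest TG mouse for 5 of the 7 genes, WT replicate 2 was the highest WT mouse for 5 and the lowest for 0, and WT replicate 1 was the lowest for 4.

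Markers of other cells were read beside these genes, against 11.6% higher and 7.09% lower among all tested loci. The 6 brown adipocyte markers summed to 7929, 6383 and 6126 FPKM in the TG mice and to 1047, 610.3 and 699.9 FPKM in the WT mice. WT replicate 1 had both the highest brown marker sum and the highest *Acacb* of the WT mice, whereas TG replicate 1 had the highest brown marker sum and the lowest *Acacb* of the TG mice. The 7 skeletal muscle markers, of which 0 were called (limma; unadjusted, 2 higher), summed to 81.5, 618 and 118 FPKM in the TG mice and to 5.22, 121 and 30.2 FPKM in the WT mice. ACC2 is known as the carboxylase of muscle. *Acacb* was highest among WT mice in replicate 1, which had the lowest muscle sum of all mice, with *Myh4* at 0, whereas among TG mice replicate 1 had both the lowest muscle sum and the lowest *Acacb*. Of the 7 macrophage markers 4 were lower (unadjusted, 7), at sums of 489.8 to 705 against 932 to 1253 FPKM, of the 8 lymphocyte markers 2 were lower (unadjusted, 4; 197 to 301 against 291 to 427 FPKM), and of the 7 fibroblast markers 1 was lower (unadjusted, 2; 1414 to 1930.1 against 2077 to 2544 FPKM). Of the 7 endothelial markers 1 was higher (unadjusted, 2 higher and 1 lower), at overlapping sums of 153 to 164 and 143 to 156 FPKM. Epithelial markers, known from the mammary gland and also a lipogenic cell type, summed to 151 to 285 and 215 to 338 FPKM, which overlap, with 1 of 12 lower (unadjusted, 5). The muscle, epithelial and endothelial counts were near or under the shares over all loci. The muscle sums nonetheless ran higher in TG mice with a wide spread, and only WT replicate 2, at 121 FPKM, exceeded any TG mouse. Of the 4 hepatocyte markers with a row 1 passed the filter on low values and was lower, *Alb*, and *Cyp3a11* was at 0 in every mouse. The part of these cells in the lipogenic differences was not tested.

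The neighbouring steps of the pathway were followed in 8 further gene lists, in which 81 of 90 genes were tested, 34 were higher and 3 lower. The counts of each list stand against 11.6% of all tested loci higher and 7.09% lower. In the list of citrate export and NADPH supply, 6 of 12 tested genes were higher and 0 lower (unadjusted, 7 and 0), with a median log2 difference of 0.41 against -0.01 for all tested loci. Citrate synthase (*Cs*) was at 995, 728 and 753 FPKM in the TG mice and at 398, 387 and 343 FPKM in the WT mice, a log2 difference of 1.12 (limma adjusted p = 0.00394). The mitochondrial malate dehydrogenase *Mdh2* differed by 1.01 (adjusted p = 0.00403) and the cytosolic *Mdh1* by 0.69 (adjusted p = 0.0191). The pentose phosphate enzymes *Taldo1* and *Pgd*, of the route that yields NADPH, differed by 0.80 (adjusted p = 0.0117) and 0.62 (adjusted p = 0.0225). Under quantile normalization *Pgd* was at 0.19 (adjusted p = 0.301) and *Mdh1* at 0.36 (adjusted p = 0.0654), neither called. The citrate carrier *Slc25a1*, through which citrate reaches *Acly*, was at 949 ± 147 and 995 ± 123 FPKM (SD, n = 3 each), a log2 difference of -0.07 that was not called (adjusted p = 0.781). *Idh1*, another source of NADPH, was also not called (0.31, adjusted p = 0.153).

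Genes that supply acetyl-CoA and biotin, the cofactor of the carboxylases, made up another list. Of these, 8 of 12 tested genes were higher and 0 lower (unadjusted, 8 and 0), with a median log2 difference of 0.94. No biotin gene was called, so the 8 calls all lay among the other genes of the list. The mitochondrial acetyl-CoA synthetase *Acss1* was at 35.6, 36.8 and 36.5 FPKM in the TG mice and at 11.2, 9.30 and 10.2 FPKM in the WT mice, with narrow spreads and no overlap, a log2 difference of 1.73 (limma adjusted p = 0.00022). The pyruvate dehydrogenase subunits *Dld* (1.46, adjusted p = 0.00198), *Dlat* (1.34, adjusted p = 0.00178) and *Pdha1* (1.16, adjusted p = 0.00189) and the mitochondrial pyruvate carrier *Mpc1* (1.31, adjusted p = 0.000735, listed under an older symbol) rose as well. Among the genes not called were biotinidase *Btd* (-0.19, adjusted p = 0.328), which recycles biotin, and *Acss3* (0.21, adjusted p = 0.196).

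The list around malonyl-CoA held 6 tested genes, of which 4 were higher and 0 lower (unadjusted, 4 and 0). The carnitine-acylcarnitine carrier *Slc25a20* was at 159, 132 and 148 FPKM in the TG mice and at 53.8, 36.6 and 37.5 FPKM in the WT mice, a log2 difference of 1.77 (limma adjusted p = 0.000981). *Cpt2*, the inner-membrane carnitine palmitoyltransferase, differed by 1.30 (adjusted p = 0.00195), the mitochondrial malonyl-CoA synthetase *Acsf3* by 1.25 (adjusted p = 0.00114) and malonyl-CoA decarboxylase *Mlycd*, which removes the product of the carboxylases, by 0.53 (adjusted p = 0.0134). *Cpt1a*, a form of the enzyme that malonyl-CoA inhibits, was at 6.73, 10.3 and 11.1 FPKM in the TG mice and at 11.3, 8.74 and 14.8 FPKM in the WT mice. The genotypes overlapped and the log2 difference of -0.28 was not called (adjusted p = 0.396). That of *Cpt1c*, -0.24, was not called either (adjusted p = 0.248). These were the only forms of this enzyme tested, and 1 of the 7 genes of the list had no row. *Cpt1b*, another form, was not among the tested genes, so its level was not read here.

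AMP-activated protein kinase (AMPK) phosphorylates and inhibits both carboxylases. Of the 10 AMPK subunits and upstream partners tested, 6 were higher and 1 lower (unadjusted, 7 and 1). The catalytic subunits went opposite ways. *Prkaa1* was at 8.14, 9.28 and 8.99 FPKM in the TG mice and at 14.8, 16.5 and 14.7 FPKM in the WT mice, a log2 difference of -0.74 (limma adjusted p = 0.00222). *Prkaa2* was at 3.96, 4.22 and 4.59 FPKM in the TG mice and at 2.83, 3.15 and 2.41 FPKM in the WT mice, a log2 difference of 0.47 (adjusted p = 0.0255). Neither gene overlapped between genotypes, and the fall of *Prkaa1* held under all 15 alternatives, while the call of *Prkaa2* was lost under 5 of them, among them without TG replicate 2 or 3 or WT replicate 1 or 3 (adjusted p 0.0519 to 0.0857). The regulatory subunits *Prkag2* (0.83, adjusted p = 0.0264) and *Prkab1* (0.61, adjusted p = 0.0124) and the scaffold *Cab39* of the upstream kinase (0.58, adjusted p = 0.00892) rose, and the upstream kinases *Stk11* (0.21, adjusted p = 0.132) and *Camkk2* (0.23, adjusted p = 0.212) were not called.

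The machinery upstream of SREBP-1 was read next. The list of SREBP processing held genes that retain, escort or cleave SREBP in the endoplasmic reticulum and Golgi. It also held *Srebf2* and *Fbxw7*, which do not. Of its 10 genes, 0 were higher and 0 lower by limma (unadjusted, 1 and 0), with a median log2 difference of -0.02. With 11.6% of all loci higher and 7.09% lower, so few calls among 10 genes are near the background. *Insig1*, which holds the SREBP precursor in the endoplasmic reticulum and is also a target of SREBP, was at 95.1, 83.6 and 95.2 FPKM in the TG mice and at 70.3, 102 and 38.2 FPKM in the WT mice. The WT mice spread widely on both sides of the TG mice, and the log2 difference of 0.48 was not called (adjusted p = 0.313). It was 0.10 without WT replicate 3 and 0.80 without WT replicate 2. *Srebf2*, the gene of the SREBP known for cholesterol synthesis, was at 33.9 ± 2.202 and 35.5 ± 0.667 FPKM (SD, n = 3 each), a log2 difference of -0.07 (adjusted p = 0.567).

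Of the partners and targets of ChREBP and of the liver X receptors, 1 of 11 was higher and 1 lower (unadjusted, 2 and 1), close to the shares over all tested loci (11.6% and 7.09%), with a median log2 difference of 0.05. Ketohexokinase *Khk*, the entry enzyme of fructose, differed by 0.58 (limma adjusted p = 0.0191), and *Rxra*, the receptor that pairs with the liver X receptors, by -0.51 (adjusted p = 0.0131). *Thrsp*, the spot 14 gene of lipogenic tissues, was at 6116, 5047 and 5027 FPKM in the TG mice and at 3141, 4305 and 2942 FPKM in the WT mice. Every TG mouse was above every WT mouse, and the log2 difference of 0.65 was not called (adjusted p = 0.0732), but was called without a mean-dependent trend in the variance (adjusted p = 0.0371). *Txnip*, a glucose-responsive gene of ChREBP, was at 587 ± 164 and 595 ± 64.4 FPKM (SD, n = 3 each; log2 difference -0.06, adjusted p = 0.877). *Pklr*, the liver pyruvate kinase gene, was listed at 0 in all mice.

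The list of later steps held enzymes that lengthen and desaturate palmitate or other fatty acids, and also *Acsl1* and *Gpam*, which do neither. Of its 12 tested genes 3 were higher and 1 lower (unadjusted, 4 and 2), against 11.6% and 7.09% of all tested loci. *Elovl6*, the elongase that takes palmitate to stearate, was at 392, 405 and 362 FPKM in the TG mice and at 156, 226 and 169 FPKM in the WT mice, a log2 difference of 1.09 (limma adjusted p = 0.00422). *Elovl3*, an elongase that is itself among the 6 brown adipocyte markers, was at 16.4, 43.1 and 19.7 FPKM in the TG mice and at 5.36, 1.41 and 1.13 FPKM in the WT mice (log2 difference 2.98, adjusted p = 0.00848). *Elovl5*, an elongase of polyunsaturated fatty acids, rose by 0.98 (adjusted p = 0.00865), whereas the desaturase *Fads1* of the same route was lower, at -0.99 (adjusted p = 0.011). *Acsl1*, which activates fatty acids, and *Tecr*, the last enzyme of the elongation cycle, were not called (0.24, adjusted p = 0.292, and 0.36, adjusted p = 0.184).

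**Figure D4:**
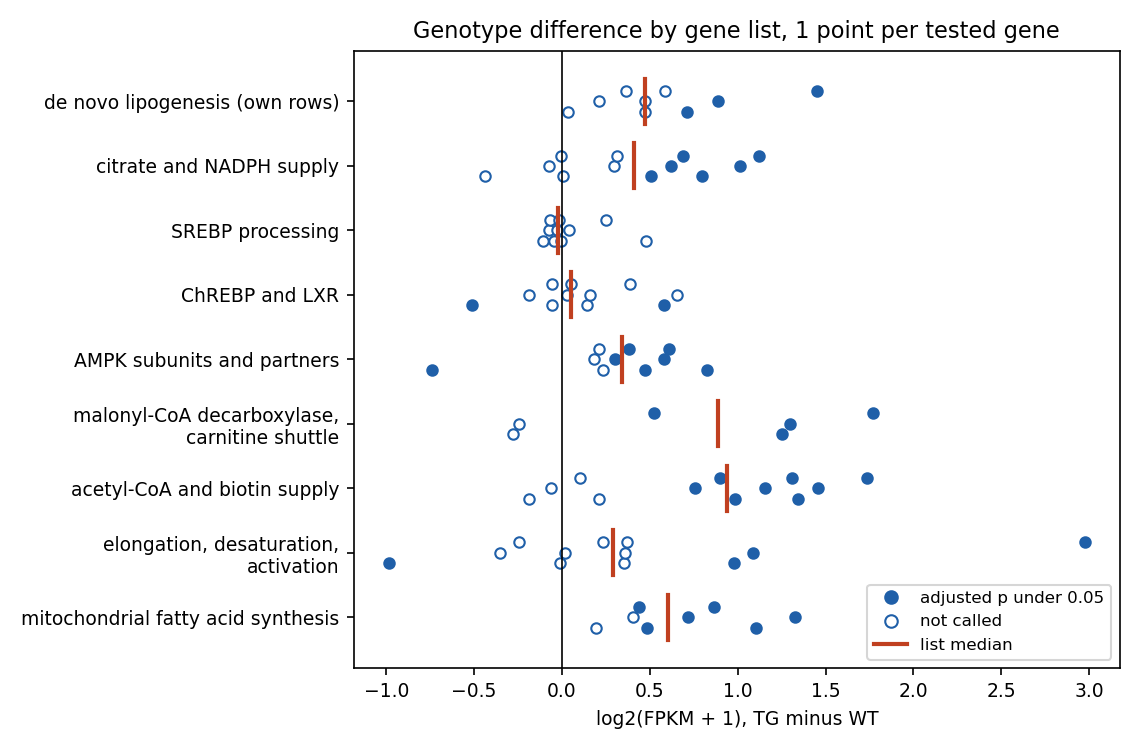
Log2(FPKM + 1) difference, TG minus WT, with 1 point per tested gene, grouped by list; filled points had an adjusted p under 0.05 and the red bar is the median of the list. Of the lists drawn, that of acetyl-CoA and biotin supply has the highest median (0.94), though no biotin gene in it was called. The SREBP processing list lies around 0 with no filled point, and the 9 lipogenic genes with their own row have a median of 0.47.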

How the data were processed

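RNA-Seq of iWAT was analysed for 3 *Hlx* transgenic (TG) and 3 wild-type (WT) mice, grouped by the sample labels. The authors mapped single-end reads of 100 bases to mm10, quantified genes and deposited FPKM per gene and mouse. The submitters' processing notes name CASAVA 1.8.2, TopHat2 2.0.9, Bowtie2 2.1.0 and Cufflinks 2.2.1, and the annotation and options are not given in the sources used here. Reads and counts were not used, so the absolute depth is unknown and no count test or counting interval was computed.

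Exact zeros beside a value over 1000 FPKM of the same locus (9 values of 3 loci) were set missing. The filter kept 11691 of 19445 loci, those whose genotype mean passed 1 FPKM in TG or WT mice. They were tested on log2(FPKM + 1), a scale that understates the change of low genes, in limma 3.58.1 (R 4.3.3), fitting genotype with lmFit and moderating with a trended eBayes; the tests were two-sided and used no covariate. P-values were Benjamini-Hochberg adjusted over all tested loci, with a threshold of 0.05, and a gene past it is named as called. Summed levels and ratios were compared with exact permutation tests (scipy 1.17.1 in Python 3.11.15), and figures were drawn with matplotlib 3.10.9. The limma step was tested on simulated data. P-values set the genotype difference against the spread between mice, with 1 library each. In limma that spread is moderated toward a trend over all tested loci.

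The genes, lists and tests were chosen with earlier results of these data known. Named from each further list were up to 5 called genes with the largest difference and up to 2 of the highest level not called, besides markers and neighbours of a locus. Genes in rows shared with another symbol, such as *Scd2*, were left out of counts. The alternatives were a pseudocount of 0.1, no filter, a filter on the mean of all mice, scaling by median ratios or quantiles, eBayes with no trend, quality weights per sample, a replicate block, zeros kept, and each mouse left out. Counting the shared *Scd2* row was added after seeing the data.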

Additional observations from a re-analysis of the deposited data

How the results depend on the processing

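The difference of *Hlx* and that of *Acacb* kept their call and direction under all 15 alternatives. The count of lipogenic genes higher in TG mice, 3 of 9, was 1 with no filter and ranged from 1 to 3 when 1 mouse was left out, at 1 without TG replicate 3, WT replicate 1 or WT replicate 3; the other settings gave 1 to 4, and counting the *Scd2* row left it at 3. With the replicate number as a block the count was 1. The numbers name different animals, and same-numbered mice did not deviate together (r = 0.0459, -0.035 and -0.00552). Leaving out 1 mouse, 788 to 1304 loci were higher (1355 with all mice; lowest without WT replicate 3, also over 1.5 times lower without TG replicate 3 or WT replicate 2) and 330 to 911 lower (829 with all mice; lowest without TG replicate 3, and over 1.5 times lower without any mouse but TG replicate 2). The values below that changed sign were not called. With zeros kept, *Fasn* was at -3.39 and *Scd1* at -4.15. Under quantile normalization *Me1* was at -0.12, *Srebf1* at -0.16 and *Acsl1* at -0.10. In that setting *Acaca* (0.15), *Acss2* (0.12), *Acly* (0.58), *Scd1* (1.06) and *Thrsp* (1.06) moved by over 1.5 times without a change of sign. So did other named genes, among them *Scd2* (0.35), *Mdh2* (0.66), *Taldo1* (0.47), *Idh1* (0.03), *Slc25a1* (-0.29) and *Txnip* (-0.38). With sample quality weights *Srebf1* was at -0.20 and *Txnip* at 0.16. Leaving out 1 mouse, *Srebf1* ranged from -0.24 (without TG replicate 1) to 0.21 and was at -0.15 without WT replicate 3, *Txnip* ranged from -0.23 to 0.19 (without TG replicate 1), and *Slc25a1* ranged from -0.18 to 0.044 (without TG replicate 3). Of the 30 called genes named from the further lists 22 kept the call throughout, and 8 lost it under at least 1 alternative. Besides *Prkaa2*, these were *Mdh1* (limma adjusted p up to 0.056 without TG replicate 1 or 3 or WT replicate 2, and 0.0654 under quantile normalization), *Pgd* (0.0722, TG replicate 1 or 2 or WT replicate 1 or 3, and 0.301 under quantile normalization), *Khk* (0.0615, WT replicate 3), *Prkag2* (0.0812, TG replicate 3 or WT replicate 2 or 3), *Prkab1* (0.0511, TG replicate 3), *Mlycd* (0.0507, WT replicate 2) and *Lias* (0.0658, TG replicate 3 or WT replicate 2 or 3). The cause was not tested. Summing rows of a symbol was not run because no lipogenic gene has several, and *Scd1* has no value without TG replicate 3.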

Other observations

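Mitochondria hold a fatty acid synthesis pathway of their own, built of separate enzymes, which uses malonyl-CoA to make the octanoyl chain from which lipoic acid, the cofactor of pyruvate dehydrogenase, is formed. Of 8 tested genes of this pathway 6 were higher in TG mice and 0 lower by limma (unadjusted, 7 and 0), against 11.6% and 7.09% of all tested loci. The median log2 difference was 0.60, against -0.01 for all tested loci. The enoyl reductase *Mecr* was at 174, 144 and 149 FPKM in the TG mice and at 65.1, 57.9 and 61.3 FPKM in the WT mice, a log2 difference of 1.32 (limma adjusted p = 0.000641). The WT values were close together and far below those of the TG mice. The acyl carrier protein gene *Ndufab1*, whose product is also a subunit of respiratory complex I, differed by 1.11 (adjusted p = 0.00215), and the reductase subunit *Cbr4* by 0.86 (adjusted p = 0.0107).

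The enzymes that complete lipoic acid and transfer it to its targets, *Lipt1* (0.72, limma adjusted p = 0.00439) and *Lias* (0.48, adjusted p = 0.0183), were higher as well. *Lias* lost its call without TG replicate 3, WT replicate 2 or WT replicate 3. *Mcat*, which loads malonyl-CoA onto the carrier protein, was at 11.4 ± 1.19 and 9.83 ± 0.871 FPKM (SD, n = 3 each), a log2 difference of 0.19 that was not called (adjusted p = 0.220), and *Lipt2* was not called (0.41, adjusted p = 0.0878). Pyruvate dehydrogenase uses lipoic acid as a cofactor, and its genes *Dld*, *Dlat* and *Pdha1* were also higher, though not each of them encodes a lipoylated subunit.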
